A study of Mus musculus with 191 samples.

Results

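Interferon-stimulated genes are the genes that cells switch on when an interferon binds its receptor. The 36 genes described here are well-known members of this response, listed by name and without a threshold on their values in these lungs. On the array, 34 of them had a probe set annotated to no other gene, and 33 of the 13524 genes tested were members. The only probe set of Isg15, the ubiquitin-like protein that the response attaches to other proteins, is shared with Gm9706, and Ifi44 has none of its own. Mx1, an antiviral GTPase, was above the median of all values on only 2 arrays and was not tested. Low members that did pass the filter were Mx2, above that median on 9 arrays, and Oasl1, above it on 49.

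The RNA came from the right lobe of the lung of B6C3F1 mice, all female and 18 weeks old after 13 weeks of exposure to a chemical or its vehicle. The study asked whether lung gene expression predicts which chemicals cause lung tumours in mice. There were 133 arrays of exposed mice in 34 groups, covering 26 chemicals, and 58 arrays of control mice in 14 sets, all of 3 to 5 arrays and hybridised in 4 array batches. The labels name no genetic change in any group. In the batch IMFGN0023_8, with 3 arrays a group, mice ate 1,5-naphthalenediamine (NAPD, 2000 ppm), N-(1-naphthyl)ethylenediamine dihydrochloride (NEDD, 2000 ppm) or pentachloronitrobenzene (PCNB, 8187 ppm) in chow, or received 2,3-benzofuran (BFUR, 240 mg/kg) in corn oil by gavage, and their controls received chow or corn oil.

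In the batch RT_HON07_MusLung, with 4 arrays a group, the chow groups received 1-amino-2,4-dibromoanthraquinone (ABDQ, 20000 ppm) or tris(2,3-dibromopropyl)phosphate (TDPP, 1000 ppm). Its corn oil groups received iodoform (IODO, 93 mg/kg) or trichlorofluoromethane (TCFM, 3925 mg/kg), and tetrafluoroethylene (TFEL, 1250 ppm) or tetrafluoroethane (TFEA, 50000 ppm) was inhaled. Controls were chow (FCO1), corn oil (CCO4) and air (ACO1). In the batch RSTLRI601_1, also with 4 arrays a group, the chow groups received 2,2-bis(bromomethyl)-1,3-propanediol (BBMP, 1250 ppm), diazinon (DIAZ, 200 ppm), malathion (MALA, 14800 ppm, but 16000 in the titles) or 4-nitroanthranilic acid (NAAC, 10000 ppm). Gavage in corn oil was used for benzene (BENZ, 100 mg/kg), coumarin (COUM, 200 mg/kg) and 1,2-dibromoethane (DBET, 62 mg/kg), and gavage in water for 2-chloromethylpyridine hydrochloride (CMPH, 250 mg/kg) and N-methylolacrylamide (MACR, 50 mg/kg). Controls were chow (FCO2), corn oil (CCO2 and CCO3) and water (WCO1).

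In the batch RSTLRI000_2, with 4 or 5 arrays a group, 1,2,3-trichloropropane (TCPN, 60 mg/kg) and 1,4-dichlorobenzene (DCBZ, 600 mg/kg) were given in corn oil. Ethylene oxide (ETOX, 100 ppm), propylene glycol mono-t-butyl ether (PGBE, 1200 ppm), vanadium pentoxide (VANP, 2 mg/m3), methylene chloride (MECL, 100, 500, 2000, 3000 and 4000 ppm) and naphthalene (NPTH, 0.5, 3, 10, 20 and 30 ppm) were inhaled. Controls were corn oil (CCO5 and CCO6) and air (ACO3, ACO4 and ACO5). Defining lung markers were at the top of the control arrays, with Sftpc of alveolar type II cells at a mean log2 value of 6.89, Scgb1a1 of club cells at 6.82 and Ager of alveolar type I cells at 6.65.

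As background, type I interferons such as IFN-alpha and IFN-beta bind the receptor pair IFNAR1 and IFNAR2, and the kinases JAK1 and TYK2 then pass the signal on to the transcription factor complex ISGF3, which contains STAT2 and IRF9. ISGF3 binds the interferon-stimulated response element in the promoters of target genes. Interferon-gamma acts through another receptor and another promoter motif, the gamma-activated site. In the lung, the response is best known from infection by respiratory viruses, and macrophages, epithelium and lymphocytes all take part. Some members also have a baseline level without infection, which low amounts of interferon are known to maintain.

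The response element can be read in the promoters of some members called in the concentration series described below. RefSeq's promoter table (GRCm38.p6) held 25 of the 36 members. The motif searched was GAAA, any 2 bases and GAAA again, read on both strands in the 250 bases before each gene's start, where adjoining copies may overlap. It was found in 13 of those 25 members (52%), against 821 of 27025 promoters of the table (3.04%). The core of the gamma-activated site, TTCNNNGAA, which reads as the same motif on both strands, was found in 5 of the 25 (20%), against 1940 of all promoters (7.18%). The 7 windows printed, each the 150 bases before the start on the gene's own strand, were chosen after the expression values were seen: Rsad2, Gbp2, Gbp3, Igtp and Irgm1 fell across the naphthalene series, Ifit1 fell across the methylene chloride series, and Bst2 is the one of the 6 most often called members with the motif. A window was printed only where it held the core. Cmpk2, Dtx3l, Ifih1, Ifit2 and Oasl2 also fell across the naphthalene series and held no core in the 250 bases searched. Parp9 and Parp14, which fell too, had no promoter entry. Bst2 rose across the methylene chloride series, where Ifit1 fell. Capitals mark the response element core, seen as TTTC, 2 bases and TTTC where it lies on the opposite strand. The windows are chr12:26456453-26456602 (minus strand) for Rsad2, chr3:142620513-142620662 (plus) for Gbp2, chr3:142559894-142560043 (plus) for Gbp3, chr11:58199406-58199555 (plus) for Igtp, chr11:48871421-48871570 (minus) for Irgm1, chr19:34640739-34640888 (plus) for Ifit1 and chr8:71537473-71537622 (minus) for Bst2.
Rsad2: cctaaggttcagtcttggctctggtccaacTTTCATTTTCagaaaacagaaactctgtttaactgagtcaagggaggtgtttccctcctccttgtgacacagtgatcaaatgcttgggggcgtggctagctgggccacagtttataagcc
Gbp2: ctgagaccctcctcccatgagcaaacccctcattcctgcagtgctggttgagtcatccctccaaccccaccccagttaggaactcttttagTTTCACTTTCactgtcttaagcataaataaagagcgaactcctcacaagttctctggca
Gbp3: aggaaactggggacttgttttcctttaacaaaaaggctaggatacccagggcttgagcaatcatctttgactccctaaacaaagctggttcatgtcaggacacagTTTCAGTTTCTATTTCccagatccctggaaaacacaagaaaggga
Igtp: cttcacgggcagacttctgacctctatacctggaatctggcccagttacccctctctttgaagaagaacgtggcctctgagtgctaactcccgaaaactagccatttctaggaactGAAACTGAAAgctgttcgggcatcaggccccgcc
Irgm1: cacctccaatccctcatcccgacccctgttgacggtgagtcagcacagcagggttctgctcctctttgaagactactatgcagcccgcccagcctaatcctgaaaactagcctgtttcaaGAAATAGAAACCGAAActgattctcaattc
Ifit1: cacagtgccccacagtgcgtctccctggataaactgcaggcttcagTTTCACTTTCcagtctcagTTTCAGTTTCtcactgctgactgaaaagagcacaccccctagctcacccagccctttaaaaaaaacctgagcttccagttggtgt
Bst2: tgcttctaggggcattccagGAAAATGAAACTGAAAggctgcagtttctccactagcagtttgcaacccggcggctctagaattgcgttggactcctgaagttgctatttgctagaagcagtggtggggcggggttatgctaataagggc
Counted back from the start, the core began at -120 in Rsad2, -59 in Gbp2 and -34 in Igtp. Gbp3, Irgm1, Ifit1 and Bst2 held 2 cores each. A match is a description of these letters, and no binding was measured.

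Values are the deposited log values, taken as log2, in which 0 is about the mean of an array. A gene was called where the Benjamini-Hochberg adjusted p of a limma model over all 13524 genes was under 0.05, with 1 sign, against each set of controls that shared its vehicle and array batch. Where a group had several such sets, the difference and its SE are against the mean of the sets. The adjusted p given is then the largest of those against the single sets, and is not a test of that mean difference. Where an exposed group is said not to overlap its controls, the share of all genes that did the same was not counted. In bulk lung, a change in the number of cells that express a gene and a change in its RNA per cell cannot be told apart.

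Over the 34 exposed groups, 25 of 1122 member tests were called (2.23%), 23 higher and 2 lower than the controls. Over all genes 11869 of 459816 tests were called (2.58%), so the members' share was near that background and is no result about them. The calls fell in 9 groups and on 18 of the 33 tested members, and 25 groups had none. Iodoform accounted for 13 of them, with 12 higher and 1 lower. In the 8 other groups 1 or 2 members were called: Bst2 and Xaf1 after 1-amino-2,4-dibromoanthraquinone, Psmb8 and Psmb9 after 2,2-bis(bromomethyl)-1,3-propanediol, Oasl2 after coumarin, Iigp1 and Trim30a after 1,2-dibromoethane, Stat2 after 1,4-dichlorobenzene and after tetrafluoroethylene, Ifih1 and Ifit2 after N-methylolacrylamide, and Ifit2 after 1,2,3-trichloropropane. The members' median log2 difference ran from -0.28 after coumarin to 0.21 after iodoform.

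**Figure D1:**
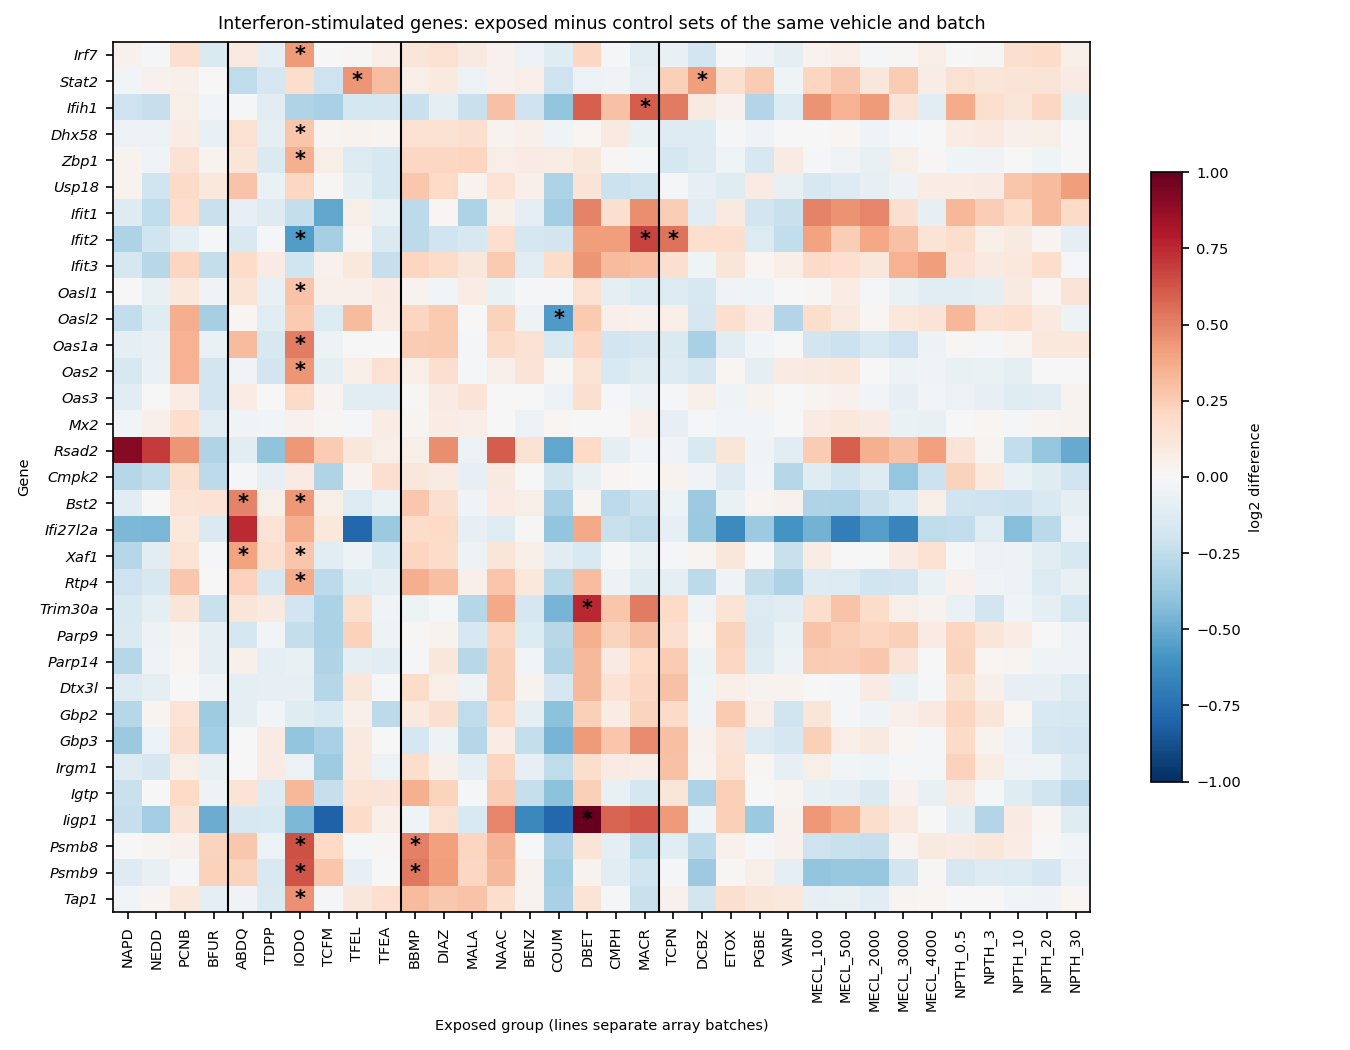
Log2 difference of each of the 33 tested members (rows, grouped by role) between each exposed group (columns, by the codes given with the chemicals and their concentration in ppm) and its control sets, red for higher and blue for lower in exposed lungs, with an asterisk where the member was called. Vertical lines separate the 4 array batches. The asterisks are mostly in the iodoform column, with 13, while Rsad2, Ifi27l2a and Iigp1 show large differences that were mostly not called.

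Iodoform lungs had higher levels of antigen processing genes and of oligoadenylate synthetases, and lower Ifit2, than corn oil lungs of the same batch. All 3 antigen processing members were higher. Psmb8, an immunoproteasome subunit that reshapes the peptides shown on MHC class I, stood at 3.01, 3.50, 2.77 and 2.91 in iodoform lungs, against 2.13, 2.59, 2.16 and 2.75 in corn oil lungs. The groups did not overlap, but the gap was narrow (2.77 against 2.75), and Psmb8 was higher by 0.64 ± 0.16 (SE, n = 4 each; adjusted p = 0.00601, limma). Psmb9, the neighbouring immunoproteasome subunit gene, stood at 2.76, 3.31, 2.57 and 2.66 in iodoform lungs, against 1.87, 2.37, 1.95 and 2.61 in corn oil lungs. The highest corn oil array lay above the lowest iodoform array, and the difference was 0.63 ± 0.17 (adjusted p = 0.00953). Tap1, which carries peptides into the endoplasmic reticulum, had 1.16, 1.57, 0.89 and 1.09 after iodoform, against 0.55, 0.77, 0.60 and 0.96 in corn oil lungs, a difference of 0.46 ± 0.12 (adjusted p = 0.00759) with an overlap of 1 array. Its 3 other probe sets, all of much lower signal, showed 0.01, 0.13 and 0.04.

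Among the oligoadenylate synthetases, which make the second messenger that activates RNase L, 3 of 5 were higher after iodoform and none lower. Oas1a had 1.62, 1.90, 1.11 and 1.44 in iodoform lungs, against 0.96, 1.03, 0.95 and 1.10 in corn oil lungs. Oas2 had 0.76, 0.98, 0.61 and 0.66 in iodoform lungs, against 0.39, 0.30, 0.27 and 0.27 in corn oil lungs. Neither gene's groups overlapped, although the gap for Oas1a was narrow (1.11 against 1.10). Oas1a and Oas2 were higher by 0.51 ± 0.14 (adjusted p = 0.00899) and 0.44 ± 0.10 (adjusted p = 0.00479). Oasl1, a catalytically inactive relative that binds Irf7 mRNA in mice, was higher by 0.28 ± 0.08 (adjusted p = 0.00899), although the lowest of its iodoform values, -0.41, was below the median of all values.

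Irf7, the transcription factor that amplifies type I interferon production, had 0.77, 0.95, 0.53 and 0.71 after iodoform, against 0.32, 0.37, 0.19 and 0.37 in corn oil lungs. All iodoform arrays were above all corn oil arrays, and the difference was 0.43 ± 0.10 (adjusted p = 0.00439). Bst2, the tetherin that holds budding virus at the cell surface, had 2.08, 2.64, 1.97 and 2.01 after iodoform, against 1.62, 1.93, 1.47 and 1.95 in corn oil lungs, higher by 0.43 ± 0.13 (adjusted p = 0.0132). Its groups were separated by a narrow gap, and the array of 2.64 stood apart. Rtp4, a chaperone-like protein induced by interferon, was higher by 0.37 ± 0.15 (adjusted p = 0.0478). The remaining higher members were the sensor Zbp1 (0.35), the RIG-I-like helicase Dhx58 (0.28) and Xaf1 (0.27), a protein known for binding the apoptosis inhibitor XIAP.

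The IFIT proteins, which bind viral RNA lacking the host cap pattern, did not follow. Ifit2 had -0.16, -0.76, 0.30 and 0.10 in iodoform lungs, against 0.80, -0.14, 0.99 and 0.05 in corn oil lungs. The groups overlapped, and Ifit2 was lower, with a difference of -0.56 ± 0.18 (adjusted p = 0.0183). Ifit1 and Ifit3 differed by -0.24 and -0.20 and were not called. None of the 5 interferon-inducible GTPases, which act on the vacuoles of intracellular pathogens, was called, and neither were Parp9, Parp14 or Dtx3l. In all, 12 of 33 members were higher, where 15.6% of all genes were called higher, and 1 of 33 was lower, where 11.9% of all genes were called lower.

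**Figure D2:**
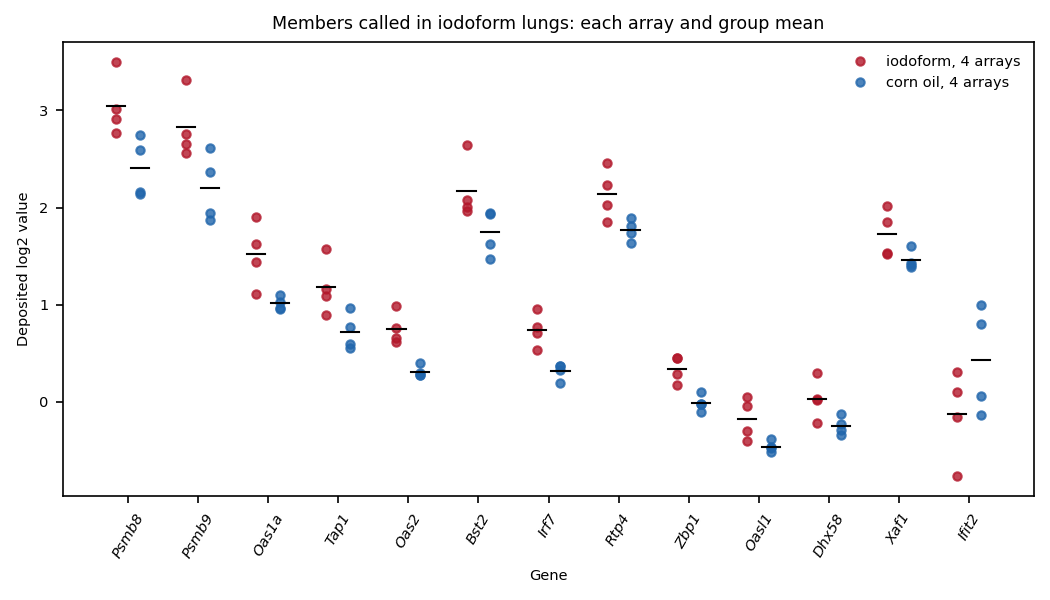
Deposited log2 values of the 13 members called after iodoform, with a point for each of the 4 iodoform arrays (red, left) and 4 corn oil arrays (blue, right) and a bar at each group's mean. Psmb8, Oas1a, Oas2, Bst2, Irf7 and Zbp1 do not overlap between groups, with narrow gaps for Psmb8, Oas1a and Bst2, and Ifit2 is the member that lies lower after iodoform.

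Of 60 other genes of the pathway, 17 were higher in iodoform lungs and 4 lower. The shares of all genes to set beside these counts and those below were 15.6% higher and 11.9% lower. Of 6 receptor genes 3 were higher, Ifngr2 by 0.37, Ifnar1 by 0.24 and Ifnlr1 by 0.18, and none was lower. Of 5 other interferon regulatory factors Irf8 (0.39), Irf5 (0.32) and Irf3 (0.29) were higher, and of 27 other interferon-stimulated genes 6 were higher and none lower, led by the immunoproteasome subunit Psmb10 (0.49) and the peptide transporter subunit Tap2 (0.43). The 4 lower ones were the kinase gene Tbk1 (-0.46), the endosomal RNA sensor gene Tlr7 (-0.26) and the negative regulators Ptpn2 (-0.45) and Pias1 (-0.35). Another negative regulator, Socs1, was higher (0.18). The 2 interferon ligand genes that could be tested were not called. Of 5 B and plasma cell markers Cd79a (0.69) and Mzb1 (0.46) were called higher, each above the corn oil mean on 3 of 4 iodoform arrays. The mean of these 5 markers was 0.184 to 1.22 over iodoform arrays and 0.188 to 1.04 over corn oil arrays, with no marker below the median of all values. The T cell marker Cd3e was also higher (0.25). The macrophage marker Mrc1 (-0.76) and Scgb1a1 of club cells (-0.28) were lower. The beta-actin 3' minus 5' probe difference, a measure of RNA integrity, was 0.257 to 0.488 in iodoform lungs and 0.559 to 0.936 in corn oil lungs. With it as a covariate none of the members was called, and none was called without iodoform replicate 2, corn oil replicate 1 or corn oil replicate 3, or in a fit of these 8 arrays alone. Rtp4 and Xaf1 also lost their calls without iodoform replicate 1 or corn oil replicate 2, and Rtp4 without corn oil replicate 4. The number of all genes called also moved, from 2 to 5364, when 1 of these 8 arrays was left out. The part of these markers in the members' differences was not tested.

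In 1,2-dibromoethane lungs 2 of 33 members were called higher, where 2.31% of all genes were called higher. Iigp1, a GTPase that coats parasite vacuoles, had 1.74, 1.57, 0.82 and 3.39 in exposed lungs, against 0.30, 0.64, 1.59 and 0.55 in one corn oil set (CCO2) and 0.44, 1.14, 1.56 and 0.64 in the other (CCO3). The exposed and corn oil arrays overlapped, and the difference was 1.02 ± 0.25 (SE, n = 4 exposed and 8 corn oil arrays; adjusted p = 0.0441, limma). Trim30a, a ubiquitin ligase family member induced in mouse immune cells, had 1.80, 1.49, 1.14 and 2.43 in exposed lungs, against 0.60, 0.87, 1.29 and 0.85 in CCO2 and 0.52, 1.19, 1.27 and 1.09 in CCO3, a difference of 0.76 ± 0.16 (adjusted p = 0.0150). Replicate 4 was highest for both genes. Without it the differences were both 0.52, with adjusted p = 0.454 for Iigp1 and 0.190 for Trim30a, and no member was called. None was called without CCO3 replicate 1 either. The Iigp1 call also ended without exposed replicate 1, CCO2 replicate 1 or CCO3 replicate 4.

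That single animal, 1,2-dibromoethane replicate 4, had the highest mean of the members in the series. It lay 0.902 above the corn oil sets, while control arrays lay between -0.247 and 0.232 of their own sets and the next highest exposed array, of diazinon, lay at 0.386. It was above all of the 11 other arrays of 1,2-dibromoethane and corn oil for 29 of 33 members, against 9.11% of all genes. The exceptions were Ifit3, Bst2, Cmpk2 and Xaf1. All 5 oligoadenylate synthetases, all 5 GTPases, all 3 antigen processing genes and both transcription factors were among the 29.

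Rsad2, the antiviral enzyme viperin, stood at 2.73 in replicate 4, with 0.54 to 0.73 in the other exposed animals and 0.28 to 1.81 in corn oil lungs. Igtp, an immunity-related GTPase, stood at 3.48, with 1.38 to 1.56 in the other exposed animals and 1.24 to 2.33 in corn oil lungs. Oasl2 stood at 2.17, with 0.59 to 1.07 in the other exposed animals and 0.35 to 1.30 in corn oil lungs. In each case replicate 4 alone left the range of the corn oil arrays. Irf7 reached 1.37, Zbp1 1.01 and Oas2 1.31, where their highest corn oil values were 0.48, 0.21 and 0.54.

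Neutrophil markers were high in the same animal. All 6 of them were above the 11 other arrays, with S100a9 at 4.83 and Ngp at 2.73 (highest corn oil values 3.95 and 0.91), and the neutrophil markers' mean ran from 0.253 to 2.95 over the exposed arrays, 0.517 to 1.60 over CCO2 and 0.686 to 1.40 over CCO3. Of B and plasma cell markers 2 of 5 were above the 11 other arrays, among them Jchain, the joining chain of secreted antibodies, at 4.09 against at most 2.52 in corn oil lungs. Other leukocyte markers were mixed. Of 9 macrophage markers 3 were above the 11 other arrays and 1, Siglecf, below them, and of 14 T and NK cell markers 2 were above and 1 below. The interferon ligands (0 of 2), the receptors (0 of 6) and the plasmacytoid dendritic cell markers (0 of 4) were not above the 11 other arrays, while 15 of 27 other interferon-stimulated genes were. The beta-actin difference of this array was 0.763, within the range of the corn oil arrays (0.598 to 0.832). The part of these cells in the members' levels was not tested.

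**Figure D3:**
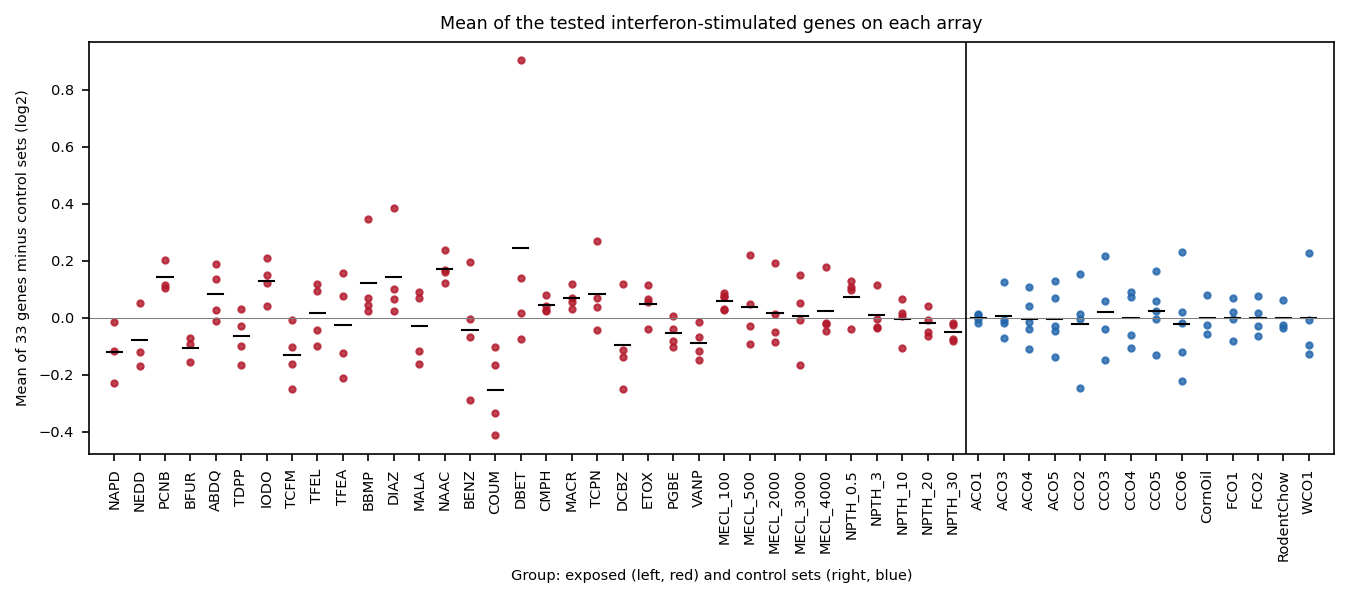
Mean over the 33 tested members on each array, as a log2 difference from the equal-weight mean of its control sets, for exposed groups (red, left) and control sets (blue, right), with a bar at each group's mean and codes as given with the chemicals. One 1,2-dibromoethane array lies at 0.902, above every other array, and the lowest, at -0.413, is a coumarin array.

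The immunoproteasome pair was called again after 2,2-bis(bromomethyl)-1,3-propanediol. Psmb8 had 2.62, 2.56, 2.79 and 3.06 in exposed lungs, against 2.15, 2.23, 2.40 and 2.25 in chow lungs, and Psmb9 had 2.17, 2.15, 2.28 and 2.66, against 1.74, 1.77, 1.84 and 1.80. All exposed arrays were above all chow arrays for both genes, and they were higher by 0.50 ± 0.16 (SE, n = 4 each; adjusted p = 0.0304, limma) and 0.53 ± 0.17 (adjusted p = 0.0363). The other probe set of Psmb8, of much lower signal, showed only 0.06. Both calls were lost with quantile normalization within the batch, and that of Psmb8 also with probe sets averaged per gene. The median difference of all genes was 0.10. Tap1 was not called. The 2 members compare with 10.4% of all genes called higher, and among other pathway genes 7 of 60 were higher and none lower, with the receptor subunit Ifnar2 (0.38) and the secreted glycoprotein Lgals3bp (0.46) at the top. The T cell markers Cd3d (0.57) and Cd8b1 (0.28) were higher too, and their part in the members' differences was not tested. Both calls ended without exposed replicate 3 or 4 or any of the 4 chow arrays, with adjusted p up to 0.171 for Psmb8 and 0.185 for Psmb9, and with the beta-actin covariate, where beta-actin differences were 0.293 to 0.356 in exposed lungs and 0.457 to 0.616 in chow lungs.

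After 1-amino-2,4-dibromoanthraquinone Bst2 had 2.18, 1.65, 2.15 and 2.26, against 1.69, 1.51, 1.52 and 1.51 in chow lungs. Replicate 2 lay within the chow range, and the difference was 0.50 ± 0.13 (SE, n = 4 each; adjusted p = 0.0308, limma). Xaf1 had 2.00, 1.64, 1.93 and 2.06, against 1.66, 1.47, 1.51 and 1.37 in chow lungs, a difference of 0.40 ± 0.11 (adjusted p = 0.0371), but its other probe set showed -0.002. Ifi27l2a, a small membrane protein gene strongly induced by interferon, had 3.15, 2.91, 2.88 and 3.07, against 2.47, 2.45, 2.25 and 1.88 in chow lungs. Its groups did not overlap and its difference of 0.74 ± 0.27 was larger, but the adjusted p was 0.142. Across all genes 0.643% were called higher, and both members' calls ended without exposed replicate 1, 3 or 4 or chow replicate 3 or 4, with adjusted p up to 0.202 for Bst2 and 0.358 for Xaf1. The beta-actin difference was 0.408 to 0.538 in exposed lungs and 0.574 to 0.764 in chow lungs. With it as a covariate Bst2 was still called.

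Ifit2 and Ifih1 were called together after N-methylolacrylamide. Ifit2 had 1.04, 0.67, 1.07 and 0.50 in exposed lungs, against 0.24, 0.35, 0.08 and -0.10 in water controls, and Ifih1, the sensor MDA5 of long double-stranded RNA, had 1.36, 1.07, 1.45 and 0.87, against 0.66, 0.83, 0.54 and 0.31. Neither gene's groups overlapped, and they were higher by 0.67 ± 0.18 (SE, n = 4 each; adjusted p = 0.0312, limma) and 0.61 ± 0.20 (adjusted p = 0.0475), where 4.19% of all genes were called higher. The macrophage marker Mrc1 was higher as well, by 0.74, and its part was not tested. Both calls ended without exposed replicate 1 or 3 or water replicate 1, 3 or 4, with adjusted p up to 0.235 for Ifit2 and 0.249 for Ifih1.

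Ifit2 was also higher after 1,2,3-trichloropropane, with 0.69, 0.88, 0.56 and 0.70 in exposed lungs. The corn oil controls had 0.62, -0.05, 0.01, 0.28 and -0.14 in one set (CCO5) and 0.29, 0.62, 0.04, -0.32 and 0.29 in the other (CCO6). The groups overlapped at 0.56 and 0.62, and the difference was 0.54 ± 0.15 (SE, n = 4 exposed and 10 corn oil arrays; adjusted p = 0.0307, limma), where 7.73% of all genes were called higher. The call ended without exposed replicate 1, 2 or 4, CCO5 replicate 5 or CCO6 replicate 3 or 4, with an adjusted p of up to 0.186. Mrc1 was higher here too, by 0.83, and its part was not tested.

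Stat2, a subunit of ISGF3, was the one member called after 1,4-dichlorobenzene and after tetrafluoroethylene. In 1,4-dichlorobenzene lungs it had 0.50, 0.45, 0.11 and 0.23, against 0.14, 0.03, 0.01, -0.13 and -0.27 in CCO5 and -0.33, -0.21, -0.24, -0.15 and 0.22 in CCO6. The lowest exposed array fell within the corn oil range, and the difference was 0.42 ± 0.08 (SE, n = 4 and 10; adjusted p = 0.0119, limma), with 1.05% of all genes called higher. Without exposed replicate 1 or 2 or CCO5 replicate 5 the call ended, with an adjusted p of up to 0.0836. The beta-actin difference was 0.207 and 0.256 in the exposed arrays with Stat2 at 0.50 and 0.45. It was 0.794 and 0.542 in the other exposed arrays, and 0.352 to 0.832 in corn oil lungs. With it as a covariate Stat2 was still called after 1,4-dichlorobenzene. As a description over all arrays, Stat2's residuals from the group means had a correlation of -0.48 with the beta-actin difference. In tetrafluoroethylene lungs Stat2 had 0.47, 0.34, 0.33 and 0.39, against 0.13, -0.10, -0.18 and -0.10 in air lungs. These groups did not overlap, and the difference was 0.45 ± 0.10 (SE, n = 4 each; adjusted p = 0.00191), with 5.65% of all genes called higher. A second Stat2 probe set showed 0.11 for 1,4-dichlorobenzene and 0.12 for tetrafluoroethylene. The beta-actin difference was 0.191 to 0.255 in tetrafluoroethylene lungs and 0.488 to 0.809 in air lungs, and with it as a covariate the adjusted p was 0.173.

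Coumarin lungs had the lowest median of the members, with 29 of 33 differences below 0 and that median at -0.28, where the median of all genes was -0.06. Counts as one-sided occurred in groups without a call. After 1,5-naphthalenediamine 29 of 33 lay below 0, and 31 lay above 0 after pentachloronitrobenzene and 29 after 4-nitroanthranilic acid. Oasl2, a ubiquitin-like relative of the oligoadenylate synthetases, had 0.39, 0.37, 0.32 and 0.03 after coumarin, against 0.35, 0.92, 0.89 and 0.85 in CCO2 and 0.75, 1.30, 0.97 and 0.72 in CCO3. Only the CCO2 array at 0.35 reached the coumarin range, and the difference was -0.56 ± 0.14 (SE, n = 4 and 8; adjusted p = 0.0382, limma), the one member called where 1.63% of all genes were called lower. All 5 GTPases had negative differences, from -0.26 for Irgm1 to -0.79 for Iigp1, and none was called. Irf9, the DNA-binding part of ISGF3, was lower (-0.38), as were Irf2 (-0.32) and Sp100 (-0.50), the 3 of 60 other pathway genes called. Of 45 cell type markers 1 was higher and 4 were lower. The macrophage markers went opposite ways, with Marco higher (0.52) and Itgax lower (-0.42), and Cdh5 of endothelium (-0.61), Scgb1a1 of club cells (-0.33) and Tbx21 of T and NK cells (-0.30) were lower. Their part in the members' differences was not tested. The Oasl2 call ended without CCO3 replicate 2, any of CCO2 replicates 2, 3 and 4, or exposed replicate 3 or 4, with an adjusted p of up to 0.263.

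No member was called in the other 25 exposed groups, in several of which few other genes were called either. The share of all genes called in either direction was 1.09% for 1,5-naphthalenediamine, 0.0887% for N-(1-naphthyl)ethylenediamine, 0.00739% for pentachloronitrobenzene and 1.86% for benzofuran. It was 0.00739% for tris(2,3-dibromopropyl)phosphate, 0.488% for trichlorofluoromethane and 0.0961% for tetrafluoroethane. It was 0% for diazinon and for 2-chloromethylpyridine hydrochloride, 1.71% for malathion, 0.0148% for 4-nitroanthranilic acid and 0.0296% for benzene. Of the inhaled chemicals of the last batch, ethylene oxide had 0%, propylene glycol mono-t-butyl ether 0.673% and vanadium pentoxide 4.33%. Methylene chloride had 0.148% at 100 ppm, 0% at 500 ppm, 0.0148% at 2000 ppm, 0.577% at 3000 ppm and 0.503% at 4000 ppm. Naphthalene had 0.37% at 0.5 ppm, 0.355% at 3 ppm, 0.555% at 10 ppm, 2.11% at 20 ppm and 2.05% at 30 ppm.

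Large differences were seen in some of these groups without a call. Rsad2 had 2.06, 1.01 and 1.80 after 1,5-naphthalenediamine and 1.29, 1.30 and 1.65 after N-(1-naphthyl)ethylenediamine, against 0.64, 0.72 and 0.77 in chow lungs. All 6 exposed arrays were above all 3 chow arrays, with differences of 0.91 ± 0.31 (SE, n = 3 each; adjusted p = 0.207, limma) and 0.70 ± 0.31 (adjusted p = 0.643). Most members were lower instead. Of 33 members 29 lay below 0 after 1,5-naphthalenediamine (median -0.13) and 25 after N-(1-naphthyl)ethylenediamine (median -0.08). The same chow arrays served both comparisons. The beta-actin difference was 0.229 to 0.305 after 1,5-naphthalenediamine and 0.220 to 0.458 after N-(1-naphthyl)ethylenediamine, against 0.507 to 0.645 in chow lungs. Rsad2's differences with it as a covariate are not reported here. Set against each other, the naphthalene amines had no member called, where 1.54% of all genes were, and the largest member difference was -0.32 ± 0.20 for Gbp3 (1,5-naphthalenediamine minus N-(1-naphthyl)ethylenediamine). The plasma cell genes Jchain (3.06) and Mzb1 (1.35) and the interferon-stimulated glycoprotein gene Lgals3bp (0.67) were higher after 1,5-naphthalenediamine than in chow lungs.

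Other groups without a call also had a member with a large difference. Iigp1 differed by -0.81 ± 0.29 after trichlorofluoromethane (adjusted p = 0.109, limma), and Ifi27l2a by -0.60 ± 0.21 after vanadium pentoxide (adjusted p = 0.282). After vanadium pentoxide, Cxcl9, a chemokine gene induced by interferon-gamma, was higher by 0.51 and the RNA sensor gene Tlr7 by 0.39, alongside the macrophage markers Cd68 (0.94) and Chil3 (0.89).

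Across the naphthalene series 4 of 5 GTPases, the viperin gene and its neighbour Cmpk2, and the PARP9-DTX3L complex fell with concentration. In a linear trend over the 20 exposed arrays, 12 of 33 members fell and 2 rose, while 31.7% of all genes fell and 9.08% rose. The members' median change from 0.5 to 30 ppm was -0.08, and that of all genes -0.07, so the members as a list stood near all genes. No member was called against air at any single concentration.

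Rsad2 ran from 0.72 to 1.27 on the 14 air arrays, with a median of 0.96. It had 1.85, 0.83, 0.95 and 0.79 at 0.5 ppm, 1.03, 0.75, 1.01 and 1.23 at 3 ppm, 0.73, 0.87, 0.59 and 0.75 at 10 ppm, 0.54, 0.51, 0.65 and 0.65 at 20 ppm, and 0.52, 0.76, 0.29 and 0.33 at 30 ppm. All arrays at 20 ppm were below all air arrays, as were 3 of 4 at 30 ppm, and the fitted change was -0.62 ± 0.14 (SE, n = 20; adjusted p = 0.00149, limma). Cmpk2, a mitochondrial nucleotide kinase induced together with viperin, averaged 0.22 in air, and 0.45 ± 0.10, 0.32 ± 0.10, 0.15 ± 0.18, 0.10 ± 0.09 and 0.02 ± 0.03 from 0.5 to 30 ppm (SD, n = 4 each). It fell by 0.39 (adjusted p = 0.00017), with the lower concentrations above the air mean and the higher ones below it.

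The guanylate-binding proteins and immunity-related GTPases fell in parallel. Igtp ran from 1.42 to 2.33 on the air arrays, with a median of 1.57. It had 1.72, 1.65, 1.76 and 1.85 at 0.5 ppm, 1.52, 1.68, 1.71 and 1.64 at 3 ppm, 1.49, 1.58, 1.50 and 1.57 at 10 ppm, 1.45, 1.41, 1.39 and 1.58 at 20 ppm, and 1.48, 1.28, 1.53 and 1.32 at 30 ppm. Most of the series stayed within the air range, and the change was -0.32 ± 0.05 (adjusted p = 0.000123). Gbp2 averaged 1.27 in air, 1.48 at 0.5 ppm and 1.10 at 30 ppm, and changed by -0.38 ± 0.07 (adjusted p = 0.000297). Gbp3 averaged -0.01 in air, 0.17 at 0.5 ppm and -0.21 at 30 ppm, and changed by -0.34 ± 0.07 (adjusted p = 0.000725). Irgm1, which protects host membranes from the other GTPases, averaged 0.94 in air, 1.17 at 0.5 ppm and 0.79 at 30 ppm, and changed by -0.31 ± 0.06 (adjusted p = 0.000468). These 4 GTPases therefore started above the air mean and ended below it, and the fifth, Iigp1, was not called.

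The other members that fell were Ifih1 (-0.32), Oasl2 (-0.29), Ifit2 (-0.21) and all 3 of Dtx3l (-0.25), Parp9 (-0.23) and Parp14 (-0.20). Parp9 and Dtx3l form a complex that modifies histones and viral proteins. Against these, 2 members rose. Usp18, the protease that removes ISG15 and damps interferon receptor signalling, averaged 1.22 in air, and 1.29 ± 0.19, 1.30 ± 0.23, 1.49 ± 0.11, 1.53 ± 0.11 and 1.64 ± 0.15 from 0.5 to 30 ppm (SD, n = 4 each). It rose by 0.35 ± 0.09 (SE; adjusted p = 0.00332), and Oasl1, near the median of all values, by 0.21 ± 0.06 (adjusted p = 0.0113).

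All 14 calls held when any 1 of the 20 arrays was left out. Gbp2, Gbp3, Igtp and Cmpk2 also held under all 6 other settings tried. The beta-actin difference averaged 0.642 in air, and 0.761, 0.840, 0.496, 0.551 and 0.546 from 0.5 to 30 ppm. With it as a covariate 7 members fell and none rose, and Rsad2 (adjusted p = 0.101) and Usp18 (0.153) were no longer called. With the air arrays added at 0 ppm, 7 fell and 3 rose. Other probe sets gave -0.29 and -0.06 for Rsad2, -0.56 for Dtx3l, -0.32 for Gbp2 and -0.09 for Parp14. The other probe set of Cmpk2, at a mean level of 0.143 against 0.173 for the one used, gave only -0.01.

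**Figure D4:**
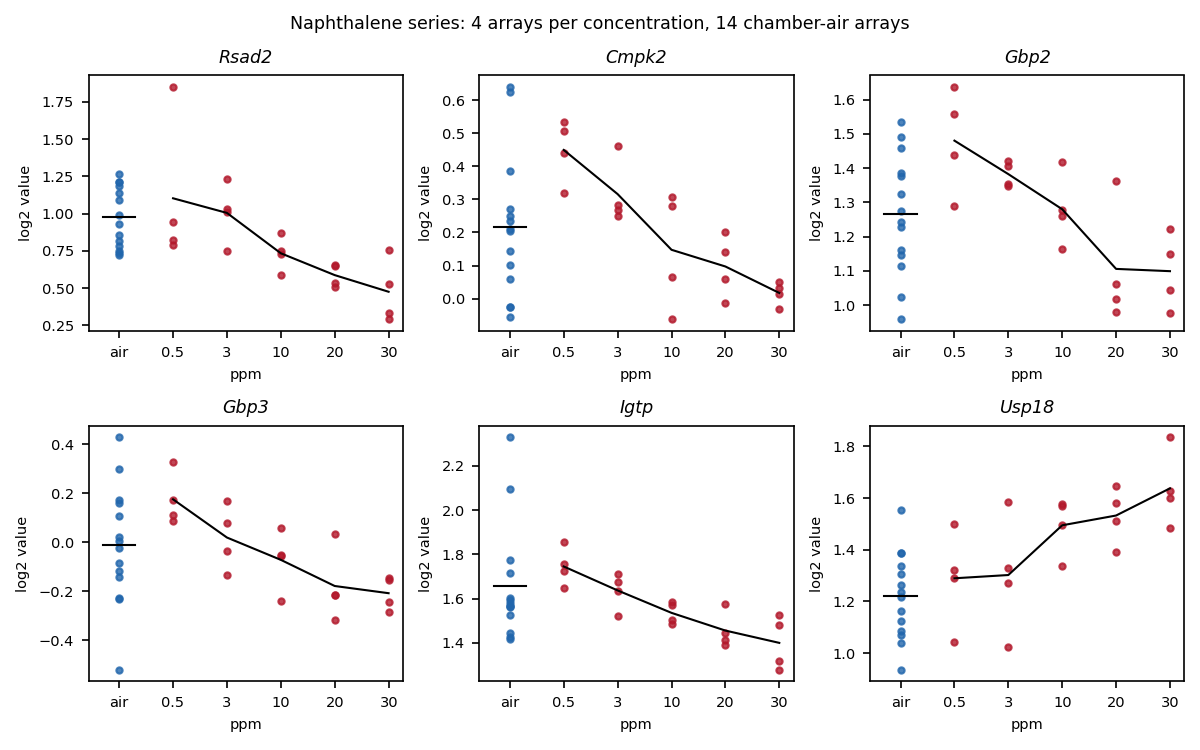
Deposited log2 values of 6 members on the 14 air arrays (blue) and on the 4 arrays of each naphthalene concentration (red), with the concentrations in ppm evenly spaced and lines through the group means. Rsad2, Cmpk2, Gbp2, Gbp3 and Igtp go down from 0.5 to 30 ppm, from about or above the air mean to below it, and Usp18 goes up.

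Other genes of the pathway and lymphocyte markers fell across the same concentrations, where 31.7% of all genes fell and 9.08% rose. Of 27 other interferon-stimulated genes 15 fell and 1 rose: Samhd1, which depletes nucleotides, changed by -0.59, and the GTPases Ifi47, Irgm2 and Gbp6 by -0.47, -0.45 and -0.42, while Lgals3bp rose by 0.54. Lgals3bp was also higher than in air at 10, 20 and 30 ppm, by 0.63, 0.78 and 0.76. Of the sensors and factors Irf8 (-0.37) and Ddx58, which encodes RIG-I, (-0.26) fell, and the suppressor Socs3 rose by 0.59. T and NK cell markers fell in 10 of 14 cases, led by Gzma (-1.16) and Nkg7 (-0.70). Their mean was 0.011 to 0.263 over air arrays, and averaged 0.155, 0.173, 0.013, -0.136 and -0.091 from 0.5 to 30 ppm, with 4 of 14 markers below the median of all values in air and 5 at 30 ppm. Gzma was lower than in air at 20 ppm (-0.98) and 30 ppm (-0.83). Over all 45 cell type markers 8 rose and 18 fell. Of the macrophage markers Siglecf (-0.46), Csf1r (-0.29) and Itgax (-0.27) fell, while Chil3 (0.52), Cd68 (0.35) and Lyz2 (0.29) rose. The endothelial markers Cdh5 (-0.36) and Pecam1 (-0.32) fell. Of the epithelial markers Sftpb (0.56), Ager (0.26) and Sftpc (0.25) rose, while Scgb1a1 fell (-0.19). Of the B and plasma cell markers Jchain rose (1.00) and Cd79a fell (-0.41), and the neutrophil marker Ltf rose (1.31). The part of these cell types in the members' slopes was not tested.

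Across the methylene chloride series 5 of 33 members rose and 8 fell in a linear trend over 21 arrays, while 27.2% of all genes rose and 15.1% fell. Ifit1, Ifih1, Iigp1, Psmb8, Psmb9 and Bst2 were away from the air mean at 100 ppm and near it at 4000 ppm, while Ifit3, Oasl1 and Mx2 did not follow that course. Ifit1, which binds viral RNA without a host cap, ran from 0.08 to 0.80 on the air arrays, with a median of 0.39. It had 0.89, 1.10, 0.71, 0.75 and 1.04 at 100 ppm, 1.15, 0.93, 0.72 and 0.63 at 500 ppm, 1.12, 0.88, 0.70 and 0.87 at 2000 ppm, 0.46, 0.51, 0.61 and 0.67 at 3000 ppm, and 0.41, 0.24, 0.43 and 0.22 at 4000 ppm. The lower 3 concentrations lay mostly above the air arrays and the highest within their range. The fitted change from 100 to 4000 ppm was -0.53 ± 0.10 (SE, n = 21; adjusted p = 0.000423, limma). At 100 ppm Ifit1 was 0.49 ± 0.13 above air, with an adjusted p of 0.0667, and no member was called against air at any concentration.

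Ifih1 averaged 0.64 in air, and 1.09 ± 0.03, 0.99 ± 0.06, 1.07 ± 0.23, 0.77 ± 0.30 and 0.54 ± 0.13 from 100 to 4000 ppm (SD, n = 5 at 100 ppm and 4 at the others). Its change was -0.48 ± 0.10 (adjusted p = 0.0011). Iigp1 averaged 0.60 in air, 1.03 at 100 ppm and 0.60 at 4000 ppm, and changed by -0.42 ± 0.10 (adjusted p = 0.0027). Smaller falls were called for Parp14 (-0.23), Gbp3 (-0.20), Mx2 (-0.18), Parp9 (-0.15) and Oasl1 (-0.14). Oasl1 averaged -0.45 in air, -0.43 at 100 ppm and -0.55 at 4000 ppm, and Mx2 averaged -0.49, -0.41 and -0.56 in the same groups, so both ended below the air mean. Mx2 lay below the median of all values (-0.386) on most arrays of the series, and Oasl1 lay below it on all arrays at 3000 and 4000 ppm.

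Of the 5 members that rose, Psmb9, Psmb8, Bst2 and Usp18 had a mean below that of air at 100 ppm. Ifit3 averaged 1.40 in air, 1.59 at 100 ppm and 1.82 at 4000 ppm, with every concentration's mean above that of air. Psmb9 ran from 1.72 to 2.34 on the air arrays, with a mean of 1.99, and averaged 1.60 ± 0.14, 1.61 ± 0.13, 1.61 ± 0.11, 1.80 ± 0.23 and 2.00 ± 0.29 from 100 to 4000 ppm (SD). It rose by 0.37 ± 0.10 (adjusted p = 0.00565), Psmb8 by 0.31 ± 0.09 (adjusted p = 0.00851) and Bst2 by 0.32 ± 0.08 (adjusted p = 0.00285). Ifit3 rose by 0.23 and Usp18 by 0.20, but the Usp18 call ended without any 1 of 14 of the 21 arrays (adjusted p up to 0.158). The Ifit3 call ended without 500 ppm replicate 3 or 4000 ppm replicate 2 or 4 (adjusted p up to 0.0958), that of Oasl1 without 4000 ppm replicate 1 or 4 (up to 0.0629), and that of Parp9 without 4000 ppm replicate 3 or 4 (up to 0.0693). The immunoproteasome pair thus ran opposite to Ifit1 and Ifih1 over the same arrays. With the 14 air arrays added at 0 ppm only Ifit3 was called. Other probe sets showed almost no change for Psmb8 (0.01) and Parp14 (-0.002).

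**Figure D5:**
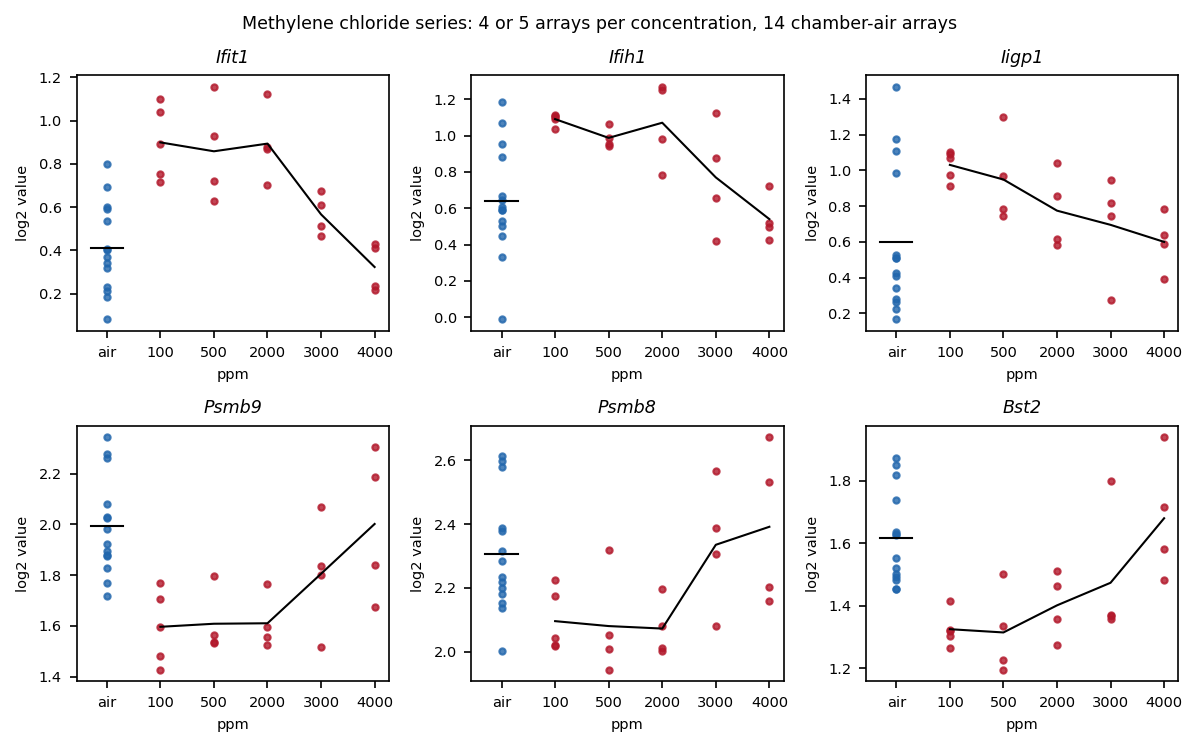
Deposited log2 values of 6 members on the 14 air arrays (blue) and on the 4 or 5 arrays of each methylene chloride concentration (red), with the concentrations in ppm evenly spaced and lines through the group means. Ifit1, Ifih1 and Iigp1 lie above the air mean at 100 ppm and near it at 4000 ppm, while Psmb9, Psmb8 and Bst2 lie below the air mean at 100 ppm and near it at 4000 ppm.

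In the same series Gbp7 and Gbp6 changed by -0.71 and -0.65, and Ifi35 and Lgals3bp by 0.43 and 0.35, among 7 that rose and 4 that fell of 27 other interferon-stimulated genes. Of all genes 27.2% rose and 15.1% fell, so the counts of these 27 genes were near the background. The receptor genes Il10rb (0.37) and Ifnar1 (0.29) rose, and the kinase gene Jak2 fell (-0.41). Both ligand genes fell, Ifna1 by 0.19 and Ifna2 by 0.24. The markers Mrc1 (-0.47), Cd68 (0.31) and Csf1r (0.28) of macrophages moved too, 3 of 9. Of T and NK cell markers Klrk1 (-0.20), Cd8a (-0.15) and Cd4 (-0.13) fell, 3 of 14. The part of these cells in the members' slopes was not tested.

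The control sets give the level of variation that the members show without exposure. None was called between sets that shared a vehicle and a batch, where the share of all genes called was 0.0296% for CCO2 minus CCO3 and 0% for CCO5 minus CCO6, ACO3 minus ACO4, ACO3 minus ACO5 and ACO4 minus ACO5. Over all 14 sets the range of a member's set means had a median of 0.28 and reached 0.70. The ratio of variance between sets to variance within them had a median of 0.659 over members, from 0.248 to 2.51, and was under 1 for 23 of 33.

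Within sets, the members varied more than most genes. Their median SD within control sets was 0.212, against 0.165 for all genes, and 24 of 33 lay above the median of all genes. Within exposed groups the median SDs were 0.204 and 0.136. The most variable were Iigp1 (0.484), Ifi27l2a (0.408), Rsad2 (0.374) and Ifih1 (0.332).

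Members also went up and down together among animals of 1 group. Over 528 pairs of members, the mean correlation of residuals from the group means was 0.307 (Pearson, over all arrays), against 0.100 over pairs of all genes, and 434 pairs were positive. Without 1,2-dibromoethane replicate 4 it was 0.241, and 0.203 over control arrays alone. Psmb8 and Psmb9 were closest, at 0.955, followed by Ifih1 and Ifit2 at 0.919, while Ifit2 ran against Bst2 (-0.44) and Psmb8 (-0.39). These values share arrays, batches and RNA quality, and are given as a description.

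The genes outside the list that followed the members' mean most closely over all arrays were Ifi47 (r = 0.830), Ms4a6b (0.785), Epsti1 (0.762), Phf11d (0.746), Irgm2 (0.743), Rnf213 (0.740), Cd274 (0.738), Gbp2b (0.736), Plac8 (0.733) and Nlrc5 (0.732). Ifi47 and Irgm2 are immunity-related GTPases, Nlrc5 is the transactivator of MHC class I genes, and Cd274 encodes PD-L1. Without 1,2-dibromoethane replicate 4 the correlations of these 10 genes ran from 0.636 for Nlrc5 to 0.836 for Phf11d.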

How the data were processed

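The authors' deposited table holds log values, taken here as log2, of 45101 probe sets on Affymetrix mouse arrays, hybridised by the standard biotin protocol after RNAlater storage, Trizol extraction and RNeasy purification, per the labels' protocols. Neither the log base nor the authors' normalization is given in the sources used here, and all differences rest on base 2. Deposited values have array means between -0.00269 and 0.00334 and array SDs between 1.01 and 1.44. For 23 of 33 members the variance between control sets was under that within them. Whether the authors' processing removed small real shifts between batches or controls was not tested. Scanner files were not analysed here.

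Of the probe sets 34958 had 1 gene symbol, 932 several and 9211 none. For each of 18194 genes the probe set with the highest mean was used, and genes with at least 3 arrays above the median of all values (-0.386) were tested. Groups follow the labels, which do not pair chemicals with control sets. Group means were estimated with limma 3.58.1 in R 4.3.3 on all arrays at once, and log2 differences are against the control sets averaged with equal weight. Trends used linear concentration over exposed arrays, scaled to the whole span of concentrations. The p-values measure the spread between animals, 1 array each as far as the labels say, and the number of arrays limits the precision. Of the arrays 32 have no RNA integrity number, and 2 have one under 7.

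Tested on simulated data with 100 genes changed by 0.5 and 100 by 1, the fit recovered 76% and 97% for iodoform, 70% and 97% for 1,2-dibromoethane, and 85% and 99% for the naphthalene trend. Of the unchanged genes 9, 0 and 7 were called. The simulated noise was normal and drawn for each gene alone, while real genes were correlated (mean pair correlation 0.100). These rates therefore check the fit and do not give the recovery on the real arrays. Members and lists were chosen with earlier results of these data known. Named members are those called (at most 8 in a direction described with full values), the 4 most variable in controls, and the largest difference where none was called, with up to 4 genes of each other list and the 10 most alike. Alternatives were quantile normalization within the batch, no filter, a stricter filter, probe sets averaged per gene, only the arrays of a contrast, a test against the averaged control sets, log10 concentration, controls at 0 ppm and each array left out, with a beta-actin covariate added after seeing the data. Members without a tested probe set were left out.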

Additional observations from a re-analysis of the deposited data

Results flagged for a closer look

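Values that lie far from the others of their group by Dixon's test were looked for in 42 groups for the members' mean and 55 for called members, and 6 were found; chance alone gives about 1 in 20. The members' mean was 0.346 in 2,2-bis(bromomethyl)-1,3-propanediol replicate 4 and 0.180 in the 4000 ppm methylene chloride replicate 2, each far above the rest of its group. Bst2 was 1.65 in 1-amino-2,4-dibromoanthraquinone replicate 2, far below the other 3 arrays. In the chow set FCO1 Bst2 was 1.69 in replicate 1, above the others. Bst2 was 2.64 in iodoform replicate 2, the array without which no member was called for iodoform. Oasl2 was 0.353 in the corn oil set CCO2 replicate 1, far below the other 3 arrays.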

How the results depend on the processing

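No paired analysis was possible because the labels number animals, not replicates shared between groups. Of 287 counts of called members under other settings, 56 moved by over 1.5 times, and the cause was not tested. Over all exposed groups 25 member calls became 9 with the beta-actin covariate, chosen after seeing the data. With it the counts were 0 for BBMP, 1 for DBET, 0 for IODO, 1 for MACR, 2 for TCPN, 0 for TFEL and 7 for the naphthalene trend. Quantile normalization gave 0 for BBMP, 3 for COUM, 0 for DBET, 2 for DCBZ, 5 for MACR, 1 each for MECL at 100 and 3000 ppm and NPTH at 30 ppm, 0 for TCPN, 1 for TFEA and 2 for TFEL. Without the filter DBET and MACR had 1, NPTH at 20 and 30 ppm 1 each and TCPN 2, and with the stricter filter TFEL had 2. Averaging probe sets gave 1 for BBMP, 0 for DBET and DCBZ, 2 for TCPN and TFEL and 1 for VANP. Fits of only the arrays of a contrast gave 0 for ABDQ, COUM, DBET, DCBZ, IODO, MACR and TCPN, 6 for BBMP, 8 for NAAC and 1 for MECL at 100 ppm, TCFM and VANP. Against the averaged control sets, a looser rule, there were 9 for COUM, 8 for DBET, 2 for DCBZ, 5 for TCPN, 2 for VANP, 1 for PGBE, 1 each for NPTH at 20 and 30 ppm, and 8, 7, 1 and 3 for MECL at 100, 500, 2000 and 3000 ppm. The methylene chloride trend had 6 with log10 concentration and 1 with controls at 0 ppm, where Parp14 and Parp9 turned to 0.0071 and 0.079. Leaving out each array in turn gave 0 to 2 calls for ABDQ and TCFM, 0 to 4 for BBMP, 0 to 5 for COUM, 0 to 6 for DBET and MACR, 0 to 1 for DCBZ, MECL at 3000 ppm and TFEA, 0 to 15 for IODO, 0 to 3 for TCPN, 1 to 2 for TFEL, 9 to 14 for the methylene chloride trend and 14 to 15 for the naphthalene trend, and 0 for the others. The number of all genes called then ran from 2 to 5364 for IODO, 8 to 3084 for BBMP and 0 to 2695 for MACR. Of 20 called differences with another probe set, 19 had the same sign on all of them. The other set showed almost no change for Cmpk2 in the naphthalene trend (-0.01 against -0.39), for Psmb8 (0.01 against 0.31) and Parp14 (-0.002 against -0.23) in the methylene chloride trend, and on 2 of 3 sets for Tap1 after iodoform (0.01 and 0.04 against 0.46). Little change was also seen on the other set for Psmb8 in BBMP (0.06 against 0.50) and for Xaf1 in IODO (0.05 against 0.27). Members near the median of all values, such as Mx2 and Oasl1, are limited by signal.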
